A study of Mus musculus with 2 samples.

Results

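The genes described here are 10 members of the bone morphogenetic protein (BMP) pathway and its inhibitor of DNA binding (ID) targets. They were taken by name from a list of symbols set for this work, with earlier results of these data known. They are the ligand gene Bmp4, the receptor genes Bmpr1a and Bmpr2, the signal transducer genes Smad1, Smad4 and Smad5, and the target genes Id1, Id2, Id3 and Id4. All 10 were matched by gene identifier among the 43346 gene rows measured. The samples were 2 total RNA-seq libraries of ES-E14, a male embryonic stem cell line of mouse strain 129/Ola, which form 1 group with no treatment, genotype contrast or time course named in the labels. The labels call the libraries biological replicates 1 and 2 and give both the same source sample, and the spread between them may therefore be of technical origin only. The sources used here give neither culture medium, serum, feeder cells nor passage.

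BMP ligands are secreted dimers that bring type I and type II receptor kinases together at the cell surface. The type I kinase then phosphorylates the receptor-activated SMAD proteins, which join the common SMAD4, enter the nucleus and bind GC-rich and CAGAC-like DNA elements near their target genes. The ID genes are the classic immediate targets, and their proteins pair with E proteins of the basic helix-loop-helix (bHLH) family and keep them off DNA. In mouse embryonic stem cells, BMP4 acting through ID proteins is known to help leukaemia inhibitory factor hold back differentiation.

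Expression depth was 43163300 expected counts on genes in replicate 1 and 45573512 in replicate 2. Levels are given in TPM, a share of all transcripts in a library that corrects for transcript length, so that genes can be set side by side. Differences between the libraries are given as log2((TPM + 1) replicate 2 / (TPM + 1) replicate 1), and genes with a mean TPM of 1 or more are called expressed. The median expressed gene was 0.23 higher in replicate 2 on that scale, and 0.01 higher after scaling the counts by the trimmed mean of M-values (TMM), so each difference is read against that shift. Differences from scaled counts (TMM or DESeq2) add 1 count in place of 1 TPM and do not correct for transcript length. They therefore differ from the TPM differences in more than the scaling. All 10 embryonic stem cell markers stood at 1 TPM or more in both libraries, with a summed level of 1307 and 1266 TPM. The sums hide differences of single markers, of which 7 were higher in replicate 2 and 3 lower. With TMM 4 were higher and 6 lower. Their log2 differences ran from -0.68 to 0.86, and from -0.99 to 0.61 with TMM. With 1 library on each side no p-value was computed.

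Of the 10 genes, 9 stood at 1 TPM or more in both libraries and only Id4 did not. The same was true of 24.8% of all gene rows and 46.3% of protein-coding genes. The median of the 10 mean levels was 6.36 TPM, against 0.88 TPM for all protein-coding genes and 5.85 TPM for the expressed ones. By mean level over all transcripts the order was Id3, Id1, Smad4, Bmpr1a, Bmp4, Bmpr2, Smad5, Id2, Smad1 and Id4. Both libraries of the higher gene lay above both libraries of the lower one in 4 of the 9 neighbouring pairs, namely Id1 over Smad4, Smad4 over Bmpr1a, Bmp4 over Bmpr2 and Smad1 over Id4. Id3 and Id1, Bmpr1a and Bmp4, Bmpr2 and Smad5, Smad5 and Id2, and Id2 and Smad1 overlapped and were not apart beyond their spread. Every gene had whole expected counts in both libraries, so no reads of the 10 were divided with another gene in these estimates.

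**Figure D1:**
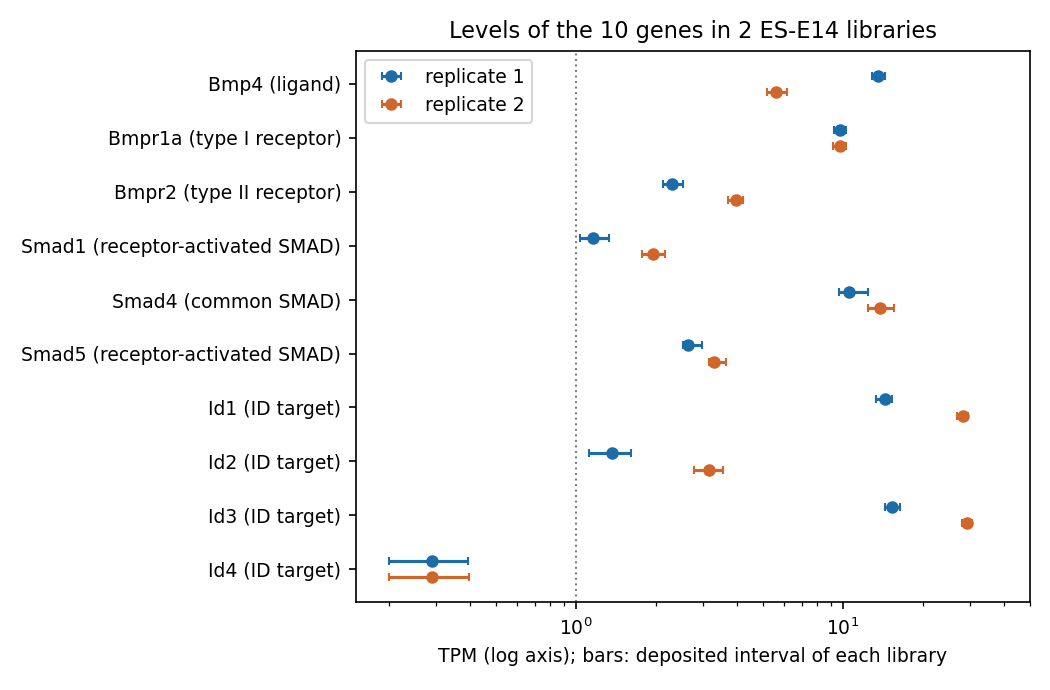
Level of each of the 10 genes in TPM on a log axis, with points for replicate 1 (blue) and replicate 2 (orange), bars for the deposited interval of each library and a dotted line at 1 TPM. Id3 and Id1 lie highest, at 29.19 and 28.23 TPM in replicate 2, Id4 lies lowest at 0.29 TPM in both, and Bmp4 is the one gene whose replicate 2 lies to the left of replicate 1 (with TMM-scaled counts Bmpr1a and Id4 are lower in replicate 2 too).

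Bmp4, the ligand gene, was the only member lower in replicate 2 in TPM, while with TMM Bmpr1a and Id4 also lay below 0. Its TPM was 13.56 in replicate 1 and 5.62 in replicate 2, a mean of 9.59 ± 5.61 (SD, n = 2), from 1759 and 712 expected counts. The deposited intervals, 12.8 to 14.4 and 5.19 to 6.16 TPM, did not overlap, and the level in replicate 1 was 2.41 times that in replicate 2. The gene lies on the minus strand of chromosome 14 from 46383520 to 46390669 (GRCm38). Its log2 difference was -1.14, and 0.595% of expressed genes had a lower one. It was the only member at least 2-fold lower in replicate 2, where 0.866% of expressed genes were, and no member was at least 2-fold higher, where 3.24% of expressed genes were. Scaling by TMM gave -1.53 for Bmp4. Fewer cells of a type that makes a transcript and less of it per cell cannot be told apart in such bulk samples.

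The stretch before the Bmp4 start is shown because Bmp4 had the largest log2 difference of the members, in either direction, over all transcripts. Over coding transcripts only, Id3 differed slightly more, at 1.17 against -1.11 for Bmp4. It holds the 250 bases before the RefSeq start (RefSeq promoter table, GRCm38.p6), written 5′ to 3′ on the gene's strand, with motif matches in capitals. Motifs were searched on both strands. The first was GGCGCC, a GC-rich element bound by receptor-activated SMADs. The second was CAGAC, the core element bound by SMAD4, which reads GTCTG on the other strand. The others were the E-box forms that E proteins bind, CAGCTG, which reads the same on both strands, and CACCTG, which reads CAGGTG on the other strand. None of the 4 motifs contains another. Of 32851 RefSeq promoter stretches of this length, 9.59% hold GGCGCC, 42.2% hold CAGAC, 13% hold CAGCTG and 17.2% hold CACCTG. The Bmp4 stretch has 1 match, an E-box of the CACCTG form that begins 177 bases before the start, and no match to the other motifs.
Bmp4 chr14:46390670-46390919, minus strand: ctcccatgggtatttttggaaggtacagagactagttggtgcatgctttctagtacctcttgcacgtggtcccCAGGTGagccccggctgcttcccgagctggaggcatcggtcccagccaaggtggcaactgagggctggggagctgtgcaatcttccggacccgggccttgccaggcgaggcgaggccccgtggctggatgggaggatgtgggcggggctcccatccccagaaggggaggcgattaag

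The 15 BMP and related growth factor genes of the pathway list gave Bmp4 a leading place among ligands. Bmp4 made up 77% of their summed TPM in replicate 1 and 53.5% in replicate 2, and the sum itself was 17.6 and 10.5 TPM. Bmp8b was next, at 1.78 and 1.68 TPM, followed by Bmp8a at 0.96 and 1.64 TPM. These are close paralogs with fractional expected counts, 379.18 and 343.56 for Bmp8b and 154.82 and 249.44 for Bmp8a, so reads were divided between similar sequences and the split is uncertain. The remaining 12 ligand genes were all below 1 TPM in both libraries. Gdf2 had 0 counts in both, where 3 counts would have given 0.0136 TPM in replicate 1 and 0.0143 TPM in replicate 2.

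Bmpr1a, the type I receptor that binds BMP4, had nearly the same TPM in the libraries. It stood at 9.73 and 9.76 TPM, a mean of 9.75 ± 0.0212 (SD, n = 2), from 2760 and 2714 expected counts, and its intervals overlapped at 9.25 to 10.3 and 9.19 to 10.3 TPM. This equality depends on the scale, since the TMM-scaled counts put it 0.25 log2 units lower in replicate 2 (-0.25) and the TPM rescaled to protein-coding genes gave -0.28. Bmpr2, the type II partner, was higher in replicate 2 instead. It stood at 2.29 and 3.96 TPM, with intervals of 2.12 to 2.51 and 3.72 to 4.23 TPM that did not overlap, and a log2 difference of 0.59 (0.50 with TMM). Its transcript is very long, so its expected counts of 1967 and 3262 were in the range of those of Bmpr1a although its TPM was lower.

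The ratio of Bmpr1a to Bmpr2 within a library does not depend on scaling between libraries, and it was 4.25 in replicate 1 and 2.46 in replicate 2. Bmpr1a led the 4 type I receptor genes, with 81.2% and 79.4% of their summed TPM. Acvr1, a type I receptor shared with other ligands, stood at 1.54 and 1.53 TPM, and Acvrl1, known from endothelium, at 0.49 and 0.79 TPM. Bmpr2 did not lead the 3 type II receptor genes and held 14% and 28.8% of their sum. Acvr2b, a receptor for activins as well as BMPs, stood higher, at 10.76 and 6.53 TPM, and was lower in replicate 2 with a log2 difference of -0.64 (-1.02 with TMM). Acvr2a stood at 3.25 and 3.24 TPM, above Bmpr2 in replicate 1 and below it in replicate 2. Bmpr1a lies on chromosome 14 from 34410734 to 34503341 and Bmpr2 on chromosome 1 from 59763400 to 59879014.

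Among the SMAD genes the common partner was the most abundant member and the receptor-activated ones were low. Smad4 stood at 10.52 and 13.7 TPM, a mean of 12.1 ± 2.25 (SD, n = 2), from 1332 and 1991 expected counts. Its intervals met at 12.4 TPM, so the libraries were not separated by them. Smad5 stood at 2.62 and 3.29 TPM, with intervals of 2.52 to 2.96 and 3.16 to 3.64 TPM. Smad1, which carries the same signal as Smad5, was lower still at 1.16 and 1.95 TPM, with intervals of 1.04 to 1.33 and 1.77 to 2.15 TPM. All 3 were higher in replicate 2, by 0.35 for Smad4, 0.24 for Smad5 and 0.45 for Smad1. The Smad5 difference was that of the median expressed gene and was 0.02 with TMM, while Smad1 gave 0.40 and Smad4 0.35. The Smad4 difference depended on the scale and was 0.08 in TPM rescaled to protein-coding genes, where Smad1 gave 0.40 and Smad5 0.03. Smad4 lies on chromosome 18, Smad5 on chromosome 13 from 56703010 to 56742377, and Smad1 on chromosome 8 from 79338395 to 79399518.

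Within each library, Smad4 transcripts outnumbered those of Smad1 and Smad5 together, by ratios of 2.78 and 2.61. Over coding transcripts only, the ratios were 1.38 and 1.73, since much of the Smad4 level came from a short transcript without a coding region, and replicate 2 then had the higher ratio. The ratio of Smad5 to Smad1 was 2.26 in replicate 1 and 1.69 in replicate 2. The remaining receptor-activated BMP SMAD gene, Smad9, was low at 0.05 and 0.12 TPM, from 22 and 46 expected counts. The inhibitory SMADs block receptor-activated SMADs and are themselves induced by the pathway. Smad7 stood at 14.12 and 12.52 TPM and Smad6 at 1.31 and 2.02 TPM. Summed Smad1 and Smad5 were therefore 0.245 times summed Smad6 and Smad7 in replicate 1 and 0.36 times in replicate 2. The values of Smad6 and Smad9 were picked out after the levels were seen.

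The ID genes split into an abundant pair and a scarce pair. Id1 stood at 14.33 and 28.23 TPM, a mean of 21.3 ± 9.83 (SD, n = 2), from 883 and 1653 expected counts. Id3 stood at 15.23 and 29.19 TPM, a mean of 22.2 ± 9.87 (SD, n = 2), from 1109 and 2204 expected counts. Both were higher in replicate 2, with intervals that did not overlap, 13.3 to 15.2 against 26.7 to 29.4 TPM for Id1 and 14.3 to 16.3 against 27.8 to 30.5 TPM for Id3. Id2 was far lower, at 1.36 and 3.16 TPM from 118 and 260 expected counts, and its intervals of 1.12 to 1.61 and 2.77 to 3.54 TPM did not overlap either. Id4, which is known from neural tissue, was listed at 0.29 TPM in both libraries from 34 and 32 expected counts. Id1 and Id3 together made up 94.7% and 94.3% of the summed ID level, which was 31.21 TPM in replicate 1 and 60.87 TPM in replicate 2.

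Id1, Id2 and Id3 were 1.97, 2.32 and 1.92 times as high in replicate 2 in TPM. Their log2 differences were 0.93, 0.82 and 0.90, and 95.7%, 92.7% and 94.9% of expressed genes had a lower one. With TMM the differences were 0.67 for Id1, 0.90 for Id2 and 0.76 for Id3. Without the added 1 TPM, which understates changes of low genes, Id2 passed the 2-fold line at 1.22 and Id1 and Id3 stood just inside it at 0.98 and 0.94. Id4 gave 0.00 in TPM and -0.31 with TMM, on few counts. The ratio of Id1 to Id3 within a library was 0.941 and 0.967, or 1.43 and 1.18 over coding transcripts only, and that of Id1 to Id2 was 10.5 and 8.93. Bmp4 went the other way, so the ratio of Bmp4 to Id1 was 0.946 in replicate 1 and 0.199 in replicate 2, and that of Bmp4 to Id3 was 0.89 and 0.193 (1.3 and 0.23 over coding transcripts).

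**Figure D2:**
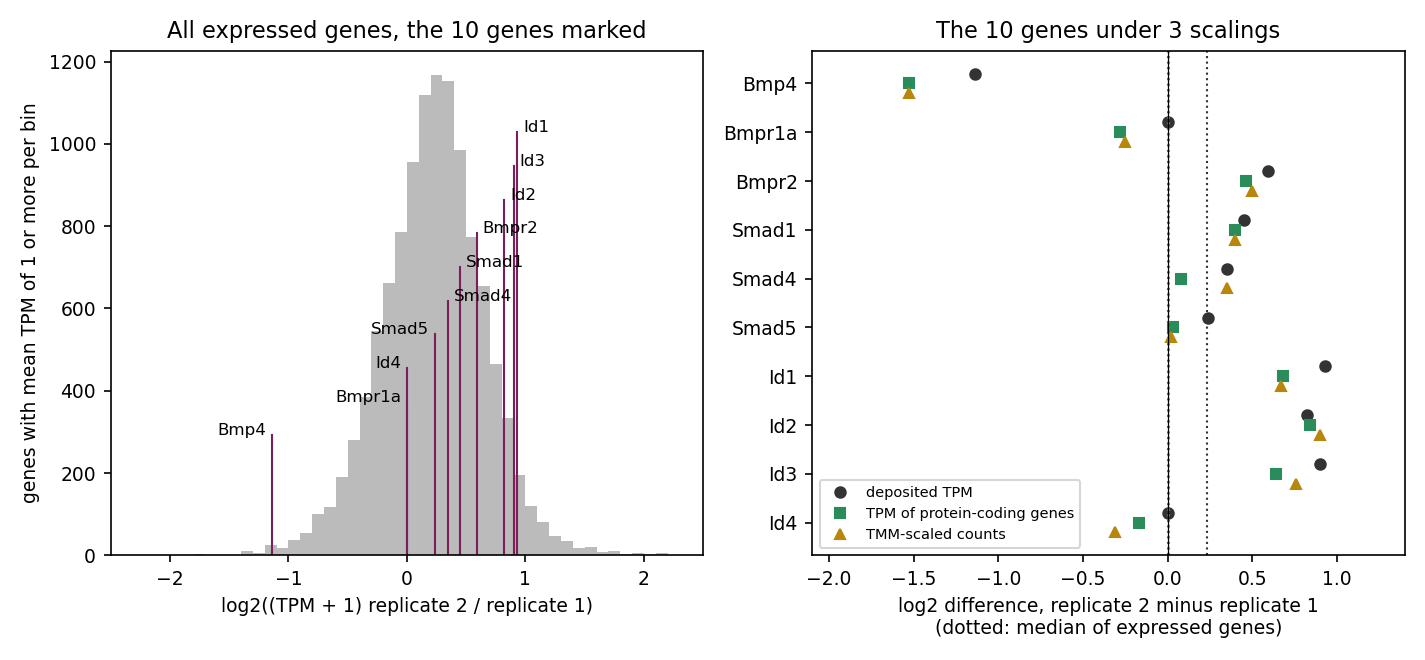
Left, number of expressed genes by log2 difference between the libraries (grey bars), with a labelled line at the value of each of the 10 genes (the heights of the lines carry no value). Right, the difference of each gene in deposited TPM (circles), in TPM of protein-coding genes (squares) and in TMM-scaled counts (triangles), with dotted lines at the median expressed gene of each scale. Bmp4 stays lowest at -1.14, -1.53 and -1.53, and Id1, Id2 and Id3 stay above 0.6 on all 3 scales.

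Across the 10 genes, the deposited interval of replicate 2 lay wholly above that of replicate 1 for 6, namely Bmpr2, Smad1, Smad5, Id1, Id2 and Id3, and this held for 49.5% of expressed genes. It lay wholly below for Bmp4 alone, against 13.3% of expressed genes. Of the 9 expressed members 8 were higher in replicate 2 by any amount, and 71.3% of expressed genes were. With TMM the count was 7 of 9 and the share of expressed genes 51.3%. The median difference of the 10 members was 0.40 beside 0.23 for all expressed genes, and 0.38 beside 0.01 with TMM. The intervals describe each library's own reads and not the spread between cultures.

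Promoter stretches of the ID genes are shown because Id1, Id2 and Id3 were each higher in replicate 2, though below the 2-fold line on the log2(TPM + 1) scale over all transcripts, and Id4 was not. The Id1 promoter was not analysed here, and Id4 rests on few counts. Capitals mark the same 4 motifs as for Bmp4, and positions count back from the RefSeq start (GRCm38.p6). Id2 has 1 GGCGCC match beginning 231 bases before its start and 1 CAGCTG match at 196 bases. The 89 bases shown stop where an annotated exon of another Id2 transcript, Id2-202, begins. They lie inside the GENCODE Id2 gene, which runs on the minus strand from 25093799 to 25097140. Both Id2 matches therefore lie downstream of that gene start, although before the RefSeq start. Id3 has no GGCGCC match and has 2 CAGAC matches, at 167 and 68 bases, of which the second is on the other strand. The whole Id3 stretch lies in an annotated exon of Id3-201, the leading transcript of Id3, from 136143497 to 136144178. That exon begins at the GENCODE gene start. Both matches therefore lie downstream of that start, inside Id3-201, although before the RefSeq start. For this reason only 30 bases around each match are shown. Id4 has 1 GGCGCC match at 148 bases. The RefSeq table matched 8 of the 10 genes, and among the others Bmpr1a had 1 GGCGCC match at 198 bases, Bmpr2 1 at 105 bases and Smad1 none. Smad5 had 3 listed starts, 1 with GGCGCC at 19 bases and 1 with CAGAC at 21 bases. Whether any of these motifs bears on the differences between the libraries was not tested.
Id2 chr12:25096254-25096342, minus strand: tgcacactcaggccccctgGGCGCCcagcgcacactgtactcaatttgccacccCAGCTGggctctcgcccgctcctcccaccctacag
Id3 chr4:136143643-136143672, plus strand: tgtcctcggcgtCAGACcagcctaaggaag
Id3 chr4:136143742-136143771, plus strand: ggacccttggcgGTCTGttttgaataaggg
Id4 chr13:48260866-48261115, plus strand: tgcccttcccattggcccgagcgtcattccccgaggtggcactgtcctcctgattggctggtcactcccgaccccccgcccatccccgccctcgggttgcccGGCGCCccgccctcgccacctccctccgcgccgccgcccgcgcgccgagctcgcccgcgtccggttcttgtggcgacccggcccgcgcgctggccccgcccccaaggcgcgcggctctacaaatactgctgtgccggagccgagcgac

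Transcript tables showed that part of the level of some members came from transcripts without a coding annotation. Id3 was the clearest case. Its coding transcript Id3-201, of 1278 bases, stood at 10.03 and 23.85 TPM with intervals of 9.22 to 10.7 and 22.5 to 24.8 TPM. The retained-intron transcript Id3-203, of 738 bases, stood at 5.2 and 5.34 TPM with overlapping intervals of 4.22 to 6.21 and 4.18 to 6.56 TPM. The higher Id3 level in replicate 2 therefore lay in the coding transcript, whose share went from 65.9% to 81.7%. Counted over coding transcripts only, Id3 was 2.38 times as high in replicate 2 with a log2 difference of 1.17, past the 2-fold line that the whole gene did not reach. This setting was chosen after seeing the data. The share of all expressed genes past that line over coding transcripts was not computed, so this call has no background. Id1 differed in having 2 coding transcripts, and Id1-201 held 93.3% and 92.8% of its level. Id2 and Id4 were each measured as a single transcript.

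Smad4 was similar to Id3 in this respect. The processed transcript Smad4-204, 487 bases long and without a coding region, held 46.8% of the gene's TPM in replicate 1 and 33.2% in replicate 2. It stood at 4.92 and 4.54 TPM, with wide and overlapping intervals of 3.42 to 6.01 and 2.49 to 6 TPM, from 126.39 and 110.18 expected counts. The full-length coding transcript Smad4-201, of 3384 bases, stood at 3.97 and 6.18 TPM with intervals of 3.56 to 4.33 and 5.67 to 6.65 TPM. Smad4-202, also coding, held 11.3% and 18.7%. The leading transcript thus was Smad4-204 in replicate 1 and Smad4-201 in replicate 2. Coding transcripts gave 5.15 and 8.74 TPM in sum, a log2 difference of 0.66 in place of 0.35, and 89.1% and 93.8% of the gene's counts. Ordered by the mean level of coding transcripts, Id1 came before Id3, and Smad4, at 6.95 TPM, came after Bmpr1a and Bmp4. A short transcript converts few reads into a large TPM, which is why the share of counts and the share of TPM differ.

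**Figure D3:**
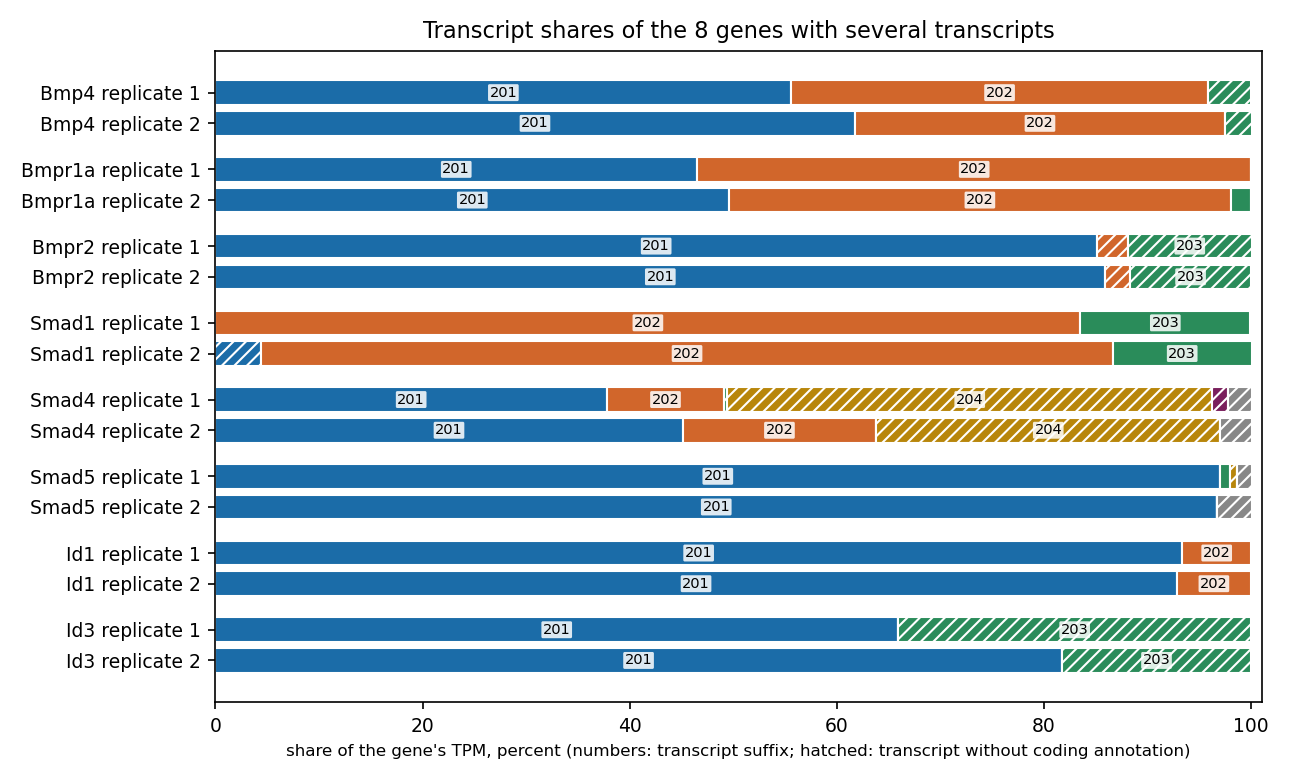
Share of each gene's TPM by transcript, in percent, for the 8 genes measured with several transcripts, with 1 bar per library, the transcript suffix written on the larger pieces and hatching for transcripts without coding annotation. The hatched Id3-203 piece narrows from 34.1% to 18.3%, and the hatched Smad4-204 piece from 46.8% to 33.2%.

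The leading transcript also differed between the libraries for Bmpr1a, where the leaders were close. Bmpr1a-202, with 1500 coding bases, held 53.5% in replicate 1 and 48.4% in replicate 2, and Bmpr1a-201, with 1596 coding bases, held 46.5% and 49.6%. Their intervals overlapped in replicate 2, at 4.05 to 5.25 and 4.58 to 5.08 TPM, so the exchange of places is within the uncertainty of the estimate. The other 6 of the 8 genes with several transcripts kept their leader. Among all genes with several transcripts, 88.8% of those at 10 TPM or more and 85.9% of those at 1 TPM or more in both libraries kept theirs.

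For Bmp4, both major transcripts encode the same 1224 coding bases and both were lower in replicate 2. Bmp4-201 stood at 7.54 and 3.47 TPM and Bmp4-202 at 5.45 and 2.01 TPM, with shares of 55.6% and 61.7% for the former and 40.2% and 35.8% for the latter. The coding sum alone gave a log2 difference of -1.11. Bmpr2-201 held 85.1% and 85.9% of Bmpr2, whose second transcript by share was the retained-intron Bmpr2-203 at 12% and 11.7%. Smad1-202 held 83.5% and 82.2% of Smad1, with Smad1-203 next at 16.4% and 13.4%. Smad5-201 held 97% and 96.7% of Smad5, with the retained-intron Smad5-206 next at 1.45% and 3.35%. Of the 10 genes 6 are overlapped by another annotated gene, and the overlapping genes found in the table held at most 25 expected counts in a library.

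A list of 70 BMP pathway genes, which includes the 10 members, set these values in context. It was chosen with earlier results of these data known. All 70 were measured, 33 stood at 1 TPM or more in both libraries, and without the members 24 of 60 did. The same was true of 46.3% of protein-coding genes and 24.8% of all gene rows. The list count thus lay near the protein-coding share, and the count without the members lay below it. These shares are also the background of the counts by role below. Of the 37 expressed genes on the list, 1 was at least 2-fold lower in replicate 2, Bmp4, and 1 at least 2-fold higher, Nbl1, a secreted antagonist at 0.87 and 2.9 TPM. Among all expressed genes the shares were 0.866% lower and 3.24% higher. The median difference of the 37 was 0.24, beside 0.23 for all expressed genes, and 0.01 beside 0.01 with TMM. Of the 37, 25 were higher in replicate 2 in TPM and 20 with TMM, beside 71.3% and 51.3% of all expressed genes, so the list as a whole lay near the background. Ligands and secreted antagonists were mostly low, with 2 of 15 and 2 of 13 at 1 TPM or more in both libraries. All 9 SMAD regulators and 5 of 6 SMAD genes passed that limit.

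Among co-receptors, 2 of 4 passed, namely Rgmb at 1.77 and 2.18 TPM and the pseudoreceptor Bambi at 1.87 and 1.49 TPM, and Rgma stood at 0.33 and 0.8 TPM. The highest SMAD regulators were the corepressor gene Skil at 18.76 and 17.17 TPM, the phosphatase gene Ppm1a at 10.11 and 12.87 TPM and the phosphatase subunit gene Ppp1r15a at 6.04 and 8.64 TPM. The highest antagonist genes were Fstl1 at 15.48 and 20.3 TPM and Twsg1 at 9.49 and 7.42 TPM, each in the range of Bmp4 or above it. Cer1, an antagonist of BMP and Nodal ligands, had 0 counts in both libraries, where 3 counts would have given 0.0244 and 0.0256 TPM.

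Of the 9 other BMP target genes, none was 2-fold apart on the log2(TPM + 1) scale. A mean below 1 TPM, where the added 1 TPM understates changes, was seen for 7. Most of the 7 were over 2-fold higher in replicate 2 by their TPM ratio alone. Some of the 7 rest on few counts, as low as 0 and 1 expected counts in replicates 1 and 2. The share of low genes with such a ratio was not computed. The median difference of the 9 was 0.45, and 0.95 with TMM. All 9 were higher in replicate 2 in TPM and with TMM, which was the case for 71.3% and 51.3% of expressed genes. Only Dusp9 and Tbx3 were expressed, so the count of 9 is not like for like with those shares. Dusp9, an ERK phosphatase gene known to respond to BMP4 in embryonic stem cells, stood at 23.76 and 45.52 TPM, a log2 difference of 0.91 (0.64 with TMM). Tbx3, a transcription factor gene of naive pluripotency, stood at 5.26 and 10.78 TPM, also 0.91 (0.71 with TMM). Without the added 1 TPM it was 2.05 times as high in replicate 2. Msx2 stood at 0.38 and 0.85 TPM from 64 and 141 expected counts, a log2 difference of 0.42 (0.90 with TMM). The ratio of Id1 to Dusp9 was 0.603 and 0.62. Smad7, also a known target although listed with the SMAD genes, was lower in replicate 2 instead, with a log2 difference of -0.16 (-0.45 with TMM). The E protein genes, whose products ID proteins bind, were nearly level in TPM, and 2 of 3 were lower in replicate 2 with TMM. Tcf3 stood at 20.59 and 20.22 TPM, Tcf4 at 6.55 and 6.58 TPM and Tcf12 at 3.56 and 4.2 TPM. The summed ID level, noncoding transcripts included, was 1.02 times that of these 3 genes in replicate 1 and 1.96 times in replicate 2.

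**Figure D4:**
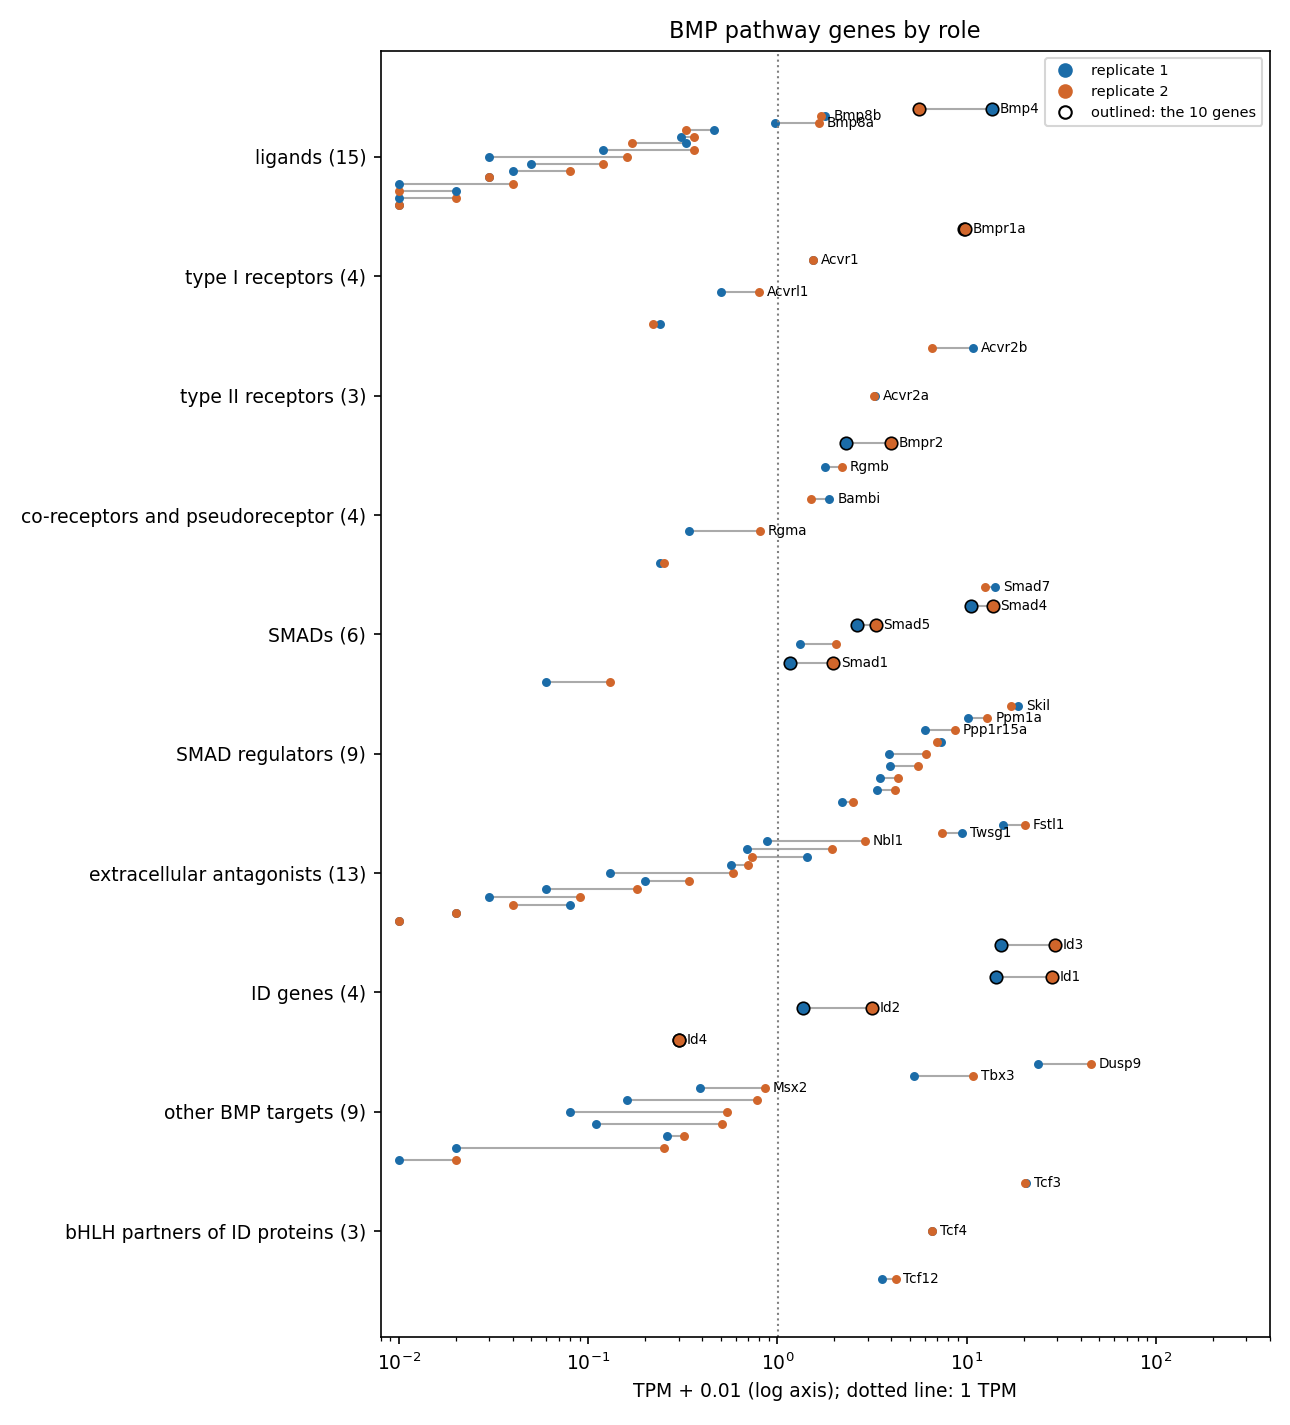
Level of the 70 pathway genes in TPM + 0.01 on a log axis, in rows by role with the number of genes in each role, blue for replicate 1, orange for replicate 2, a grey line joining the libraries and black outlines for the 10 genes described. Bmp4 is the highest ligand and runs right to left from replicate 1 to replicate 2, while Id1, Id3, Dusp9 and Tbx3 run left to right and the 3 bHLH partners barely part.

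Marker genes of other cell types also differed between the libraries. Of expressed genes, 71.3% were higher in replicate 2 and 3.24% at least 2-fold higher. Of the feeder fibroblast genes 6 of 10 were expressed, of primitive endoderm 3 of 8 and of trophectoderm 3 of 7. Of the mesoderm genes 0 of 7 were expressed, and of neuroectoderm 3 of 6. The counts of higher genes below cover whole lists, so they are not like for like with the 71.3%. Of 10 feeder fibroblast genes 8 were higher in replicate 2 and 1 lower, 4 were at least 2-fold higher, and the summed level of the list was 48.8 and 157 TPM, led by Acta2, Col1a1 and Col1a2, with Lum at 0 counts in both. All 8 primitive endoderm genes were higher, and the 3 expressed ones, Col4a1, Dab2 and Pdgfra, were each at least 2-fold higher. The list, led by these 3, summed to 16.6 and 50.8 TPM, and Sox7 was lowest at 0.02 and 0.2 TPM. All 7 trophectoderm genes were higher, with sums of 130 and 213 TPM, led by Krt8, Krt18 and Tfap2c. These 3 were the expressed ones and none was 2-fold higher, while the added 1 TPM understates changes of the others. Elf5 was lowest at 0.02 and 0.11 TPM. Of 7 mesoderm genes 5 were higher and 1 lower, with sums of 1.29 and 2.28 TPM. The highest were Kdr, T and Tbx6, of which Tbx6 was the lower one in replicate 2, and Msgn1 was lowest at 0 and 0.03 TPM. Of 6 neuroectoderm genes 4 were higher and 2 lower, with sums of 20.5 and 35.5 TPM. Tubb3, at 13.28 and 27.12 TPM, carried most of that sum, followed by Nes and by Pax6, which was lower in replicate 2 at 1.37 and 0.97 TPM, and Zic1 was lowest at 0.06 and 0.08 TPM. Only Lum had 0 counts in both libraries among all these markers. The part of these other cell types in the Bmp4 and ID differences was not tested.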

How the data were processed

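Total RNA of 2 ES-E14 libraries was measured. Per the deposited text files, the authors aligned each library to mm10 transcripts of annotation M4; the aligner and quantifier are not named there (not given in the sources used here). Per the file headers, the deposited tables hold expected counts, TPM, FPKM, and a posterior mean TPM with interval bounds, treated as signal values. The level of the interval is not stated. Per the file headers, the authors also gave each transcript's TPM as a percent of its gene's TPM. Strand use in counting is not given either, so reads of overlapping antisense genes cannot be told apart.

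GENCODE M21 (GRCm38, the assembly of mm10) supplied symbols, biotypes and coordinates and matched 42462 of 43346 gene rows. The 69691 rows of each gene table include rows that are no genes, which were left out. Of the 32 transcripts of the members, 30 have the same length in M21, and exon and coding lengths are from M21. Expected counts were rounded only for scaling with edgeR 4.0.16 (TMM) and DESeq2 1.42.0 (size factors) in R 4.3.3; no count test was run. The TPM scale is shared with noncoding RNA: protein-coding genes outside the mitochondria held 18.7% and 22.9% of it, so TPM was also rescaled to them. Hjv is listed as Hfe2 in GENCODE.

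The members, gene lists and limits were chosen with earlier results of these data known. Named genes were the 10 members, the 3 highest of each role, genes at 0 counts, the 3 highest and the lowest of each list of other cell types, and the 2 leading transcripts of each member. A gene was called 2-fold apart at a log2 difference of 1 with a pseudocount of 1 TPM. Alternatives were other scalings, pseudocounts, limits and single libraries. Counting of genes, scaling and calls were checked on simulated data.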

Additional observations from a re-analysis of the deposited data

How the results depend on the processing

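The median level of the 10 genes, 6.36 TPM, was 11 in FPKM, 31.1 in TPM rescaled to protein-coding genes, and 4.91 TPM over coding transcripts only (a setting chosen after seeing the data); in single libraries it ran from 4.79 to 6.18 TPM. The number at 1 TPM or more, 9, was 5 at a limit of 5 TPM, 10 after rescaling, and 9 in either library alone. Rescaling makes this limit looser, since protein-coding genes outside the mitochondria held only 18.7% and 22.9% of TPM. The share of all genes at the limit is given here for the main setting only. The pathway list count, 33, was 17 at a limit of 5 TPM, and 34 to 36 in single libraries. No member was 2-fold higher in replicate 2 except with a pseudocount of 0.1, where 1 was (777 of all expressed genes in place of 371), and with none (chosen after seeing the data), where 1 was (853 genes); it was Id2. Over coding transcripts only (also chosen after seeing the data) 1 was higher, Id3, with no count over all expressed genes to set beside it. Bmp4 stayed the 1 gene 2-fold lower under every setting run, while the number of all expressed genes that low was 99 in TPM and 469 with TMM, 431 with DESeq2 size factors and 410 after rescaling, beside 352, 367 and 294 higher. The median difference of members, 0.40, was 0.24 after rescaling, 0.54 with a pseudocount of 0.1 and 0.57 with none. The median leading transcript share was 78.3%, and 74.7% to 81.9% in single libraries. Of 70 single-gene differences recomputed, 34 moved by over 0.1 log2 units and none changed sign from a called value. Bmpr1a and Id4 went from 0.00 to below 0 in FPKM and under TMM, DESeq2 and rescaling. The causes of these shifts were not tested. No paired analysis was possible because the series has 1 group, with 1 library per replicate number.

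Depth limits Id4, at 34 and 32 counts, and the short noncoding transcripts.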
